A study of Mus musculus with 8 samples.

Results

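The endoplasmic reticulum machinery that holds or releases the sterol regulatory element-binding proteins (SREBPs) was read in the liver transcriptomes of RORα f/f and liver-specific *Rora*-deficient (RORα LKO) mice. The 7 genes are *Insig1*, *Insig2*, *Scap*, *Srebf1*, *Srebf2*, *Mbtps1* and *Mbtps2*, taken by symbol from the 38283 genes of the deposited table. All 7 passed the filter on low values with 11634 genes in total, an expression above 1 FPKM (sequenced fragments scaled to transcript length and to library size) in 1 library or more. The group was chosen by measured values, namely the FPKM of *Insig2* in LKO against f/f libraries on the high-fat diet, where it was higher. The genotype difference on that diet, all that contains it and every diet difference of *Insig2* are therefore given as a description, with no test.

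Mice of both genotypes received either a control diet (CD) or a high-fat diet (HFD), which makes 4 groups. All were C57BL/6 males with loxP sites around exons 4 and 5 of *Rora*, kept on their diet for 10 weeks from 8 weeks of age. The LKO mice also carried Alb-Cre, a Cre recombinase under the albumin promoter, which acts in hepatocytes. Whether the gene stayed intact in other liver cells cannot be read from bulk liver. Each group had 2 poly(A) RNA libraries with RNA from the livers of 2 mice pooled in each, so that p-values measure the spread between pools and not that between animals.

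The FPKM of *Rora*, which covers the whole gene and not the deleted exons alone, did not separate the genotypes on HFD. It was 8.85 and 8.59 in the f/f and 7.96 and 8.18 in the LKO libraries on CD, and 7.56 and 7.86 in the f/f and 7.30 and 8.02 in the LKO libraries on HFD. The study reported that *Rora* mRNA and RORα protein were depleted in LKO liver and primary hepatocytes, by assays other than these libraries. Libraries are called by their labels, and every direction between genotypes rests on those labels. The deposited table holds no read counts, so that read depth is unknown. The steps between the lowest values of 1051 genes placed the relative depth of the libraries roughly between 0.824 and 1.17 of the first f/f library on CD. Of 6 hepatocyte markers, 5 were high in all libraries, whereas *Alb* itself was listed at 0 in 4 of the 8 and at 29902 to 30888 FPKM in the others. An exact 0 in such a table can be a failed estimate, so that it is not read as a level. The adipocyte markers *Adipoq*, *Plin1* and *Lep* did not exceed 0.377 FPKM in any library, and *Retn* did not exceed 0.098. Of the same list, *Fabp4* was 6.45 to 10.4 FPKM. *Cfd* was 0.182 to 5.45 FPKM, with 5.45 and 5.29 in the LKO libraries on HFD. In bulk liver, fewer cells of a type and less RNA per cell cannot be told apart.

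SREBPs are made as precursors in the membrane of the endoplasmic reticulum, where the escort protein SCAP binds them. When sterols are plentiful, the INSIG proteins hold SCAP in place. When sterols are low, SCAP escorts the SREBP to the Golgi, where the site-1 protease (*Mbtps1*) and the site-2 protease (*Mbtps2*) cut it and free the part that enters the nucleus. SREBP-1c (*Srebf1*) mainly drives fatty acid synthesis and SREBP-2 (*Srebf2*) mainly drives cholesterol synthesis and uptake. *Insig1* is itself an SREBP target, while *Insig2* has a liver transcript with its own promoter that is known to be repressed by insulin. RORα binds the letters AGGTCA or GGGTCA after an AT-rich stretch.

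Start site windows of the genes that the results turn on are shown for *Insig2* and *Insig1*, which went in opposite directions with diet, and for *Srebf2*, the member whose window holds a sterol element. They run 5′ to 3′ along the gene's strand from 250 bases before to 50 bases after a RefSeq start, on GRCm38.p6. Capitals mark the ROR core (AGGTCA or else GGGTCA), the E-box (CACGTG) and the sterol regulatory element (ATCACCCCA), each searched on both strands. The AT-rich stretch before a ROR core was not part of the search, so that a marked core need not be a full ROR element.
Insig2 window 1, chr1:121332540-121332839, minus strand: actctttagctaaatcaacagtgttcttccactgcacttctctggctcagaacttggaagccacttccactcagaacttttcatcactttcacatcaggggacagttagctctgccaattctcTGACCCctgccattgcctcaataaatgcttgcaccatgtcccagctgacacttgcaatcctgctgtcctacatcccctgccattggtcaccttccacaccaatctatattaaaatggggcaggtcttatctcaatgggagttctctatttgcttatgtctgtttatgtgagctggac
Insig2 window 2, chr1:121327975-121328274, minus strand: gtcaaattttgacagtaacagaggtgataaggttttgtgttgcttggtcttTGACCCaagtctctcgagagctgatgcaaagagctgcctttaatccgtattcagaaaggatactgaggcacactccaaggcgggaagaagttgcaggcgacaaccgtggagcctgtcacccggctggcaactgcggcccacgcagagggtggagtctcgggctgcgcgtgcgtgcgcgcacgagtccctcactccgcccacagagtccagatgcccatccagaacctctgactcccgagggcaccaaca
Insig1 window 1, chr5:28071162-28071461, plus strand: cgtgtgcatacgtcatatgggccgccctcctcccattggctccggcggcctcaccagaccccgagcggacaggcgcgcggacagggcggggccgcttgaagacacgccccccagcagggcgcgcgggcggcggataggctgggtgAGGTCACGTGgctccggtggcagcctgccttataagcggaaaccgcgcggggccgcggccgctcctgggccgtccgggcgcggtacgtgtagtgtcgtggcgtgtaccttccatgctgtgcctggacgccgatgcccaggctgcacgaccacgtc
Srebf2 window 1, chr15:82147019-82147318, plus strand: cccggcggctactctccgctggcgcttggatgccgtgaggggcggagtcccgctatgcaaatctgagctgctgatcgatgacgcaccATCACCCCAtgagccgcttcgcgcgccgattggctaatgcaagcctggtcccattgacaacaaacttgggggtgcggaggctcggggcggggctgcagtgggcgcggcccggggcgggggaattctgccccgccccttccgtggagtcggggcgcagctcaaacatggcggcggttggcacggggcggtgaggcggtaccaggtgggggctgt

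In GENCODE M21 on the same build, *Insig1* lies on chromosome 5 (28071363 to 28078662, plus strand), *Insig2* on chromosome 1 (121304353 to 121332589, minus) and *Scap* on chromosome 9 (110333288 to 110384950, plus). *Srebf1* lies on chromosome 11 (60199089 to 60222581, minus) and *Srebf2* on chromosome 15 (82147181 to 82205379, plus). *Mbtps1* lies on chromosome 8 (119508156 to 119558735, minus) and *Mbtps2* on chromosome X (157535371 to 157598715, minus).

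Windows matched for 7 of 7 genes, 12 windows in all. *Insig2* had 3, numbered in the direction of transcription, and window 1 and window 2 each held GGGTCA on the opposite strand, at −127 and −199 from the start, whereas window 3 held none of the 4 motifs. The *Insig1* window held AGGTCA at −105 and CACGTG at −101, which share 2 letters. ATCACCCCA stood at −163 in the *Srebf2* window and was found in 0.28% of the 32851 mouse windows. Of all windows, 27.5% held AGGTCA or GGGTCA and 7.15% held CACGTG. Among the other members, both overlapping *Scap* windows held 1 shared CACGTG and the *Mbtps2* window held GGGTCA. The 3 windows of *Srebf1* and the window of *Mbtps1* held none of these letters, which says nothing of sequence outside them. The FPKM are sums over a gene, so that starts cannot be told apart.

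On the FPKM scale, which is per transcript length, the INSIG genes stood highest and the proteases and *Srebf2* lowest. In the f/f-labelled group on CD the mean level was 87.5 for *Insig1*, 67.2 for *Insig2*, 35.6 for *Srebf1*, 26.5 for *Scap*, 13.8 for *Mbtps1*, 8.66 for *Srebf2* and 3.88 for *Mbtps2*. In the other 3 groups *Insig2* stood above *Insig1*. The order of the other 5 genes was the same in all 4 groups. Neighbours in this order did not overlap between libraries, except *Srebf1* and *Scap* in LKO-labelled libraries on HFD (34.3 and 30.9 against 32.8 and 29.6). Over the 8 libraries the highest FPKM was 2.35 times the lowest for *Insig2* and 1.96 times for *Insig1*. It was 1.93 times for *Srebf1*, 1.72 times for *Scap*, 1.403 times for *Mbtps2*, 1.31 times for *Mbtps1* and 1.26 times for *Srebf2*.

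**Figure D1:**
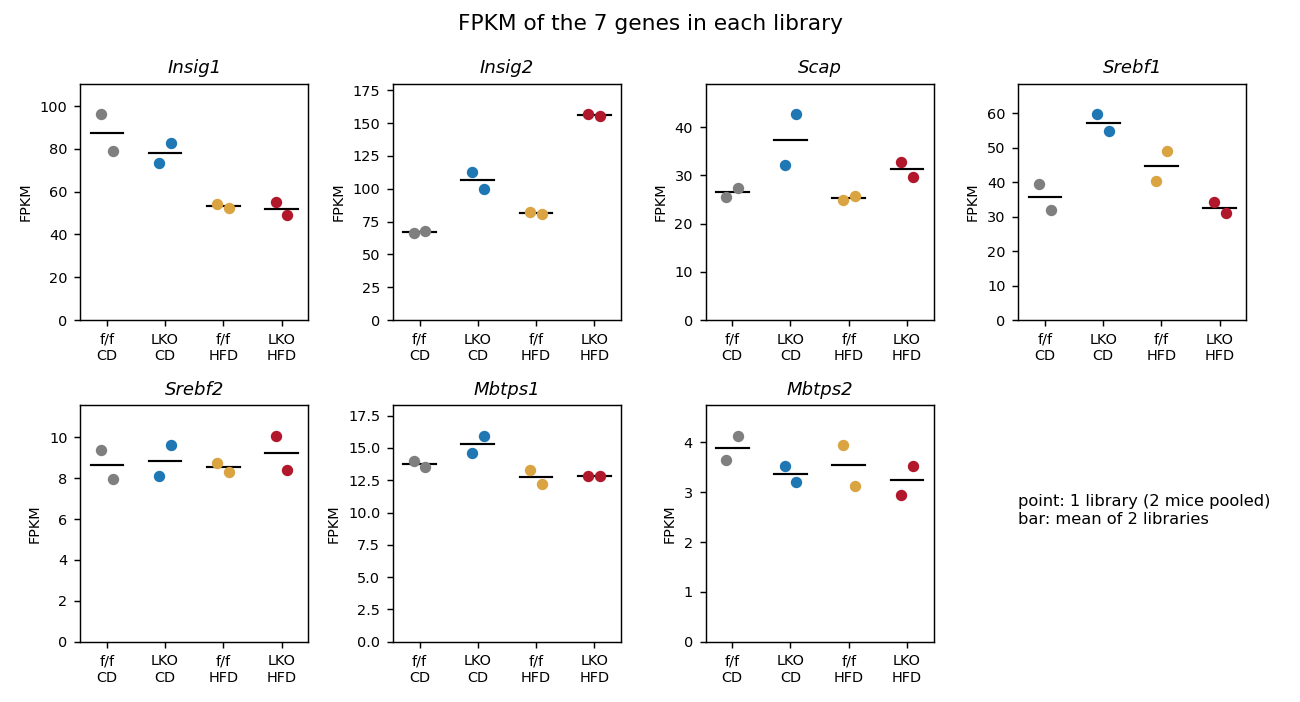
FPKM (y axis, from 0) of each of the 7 genes in the 4 groups (x axis), with 1 point per library and a bar at the mean of 2 libraries. *Insig2* climbs to 157 and 156 in the HFD-fed LKO-labelled libraries, *Insig1* is lower in all 4 HFD libraries than in all 4 CD libraries, and *Srebf1* is highest in the CD-fed LKO-labelled libraries.

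*Insig2*, which retains SCAP and is the INSIG less dependent on SREBPs, had the widest range. Its FPKM was 66.5 and 67.9 in the f/f-labelled and 113 and 99.97 in the LKO-labelled libraries on CD. With HFD feeding it was 82.4 and 81.0 in the f/f-labelled and 157 and 156 in the LKO-labelled libraries. The LKO-labelled libraries lay above the f/f-labelled ones on both diets, and the HFD libraries above the CD libraries under both labels. On CD the means were 67.2 ± 0.950 and 106 ± 9.14 (SD, n = 2 libraries), 1.58 times. That is a log2 difference of 0.65 on the log2(FPKM + 1) scale (95% interval 0.45 to 0.84), which did not pass limma's test across all genes (adjusted p = 0.0888). The spread in this test came from all 8 libraries, so that the HFD libraries by which *Insig2* was chosen entered its interval and adjusted p. Over the other processing choices that adjusted p ranged from 0.0567 to 0.401. As a description, the LKO-labelled mean on HFD was 1.91 times the f/f-labelled one (log2 difference 0.94). The HFD mean was 1.22 times the CD mean in f/f-labelled libraries (0.35) and 1.47 times in LKO-labelled libraries (0.65). The summed FPKM of 6 adipocyte markers, of which 4 were under 1 FPKM in all libraries, was also highest in LKO-labelled HFD libraries. It was 6.72 to 8.26 and 7.84 to 9.90 in f/f-labelled and LKO-labelled libraries on CD, and 9.93 to 11.1 and 14.2 to 15.9 on HFD. The sum overlapped between the labels on CD. Its lowest f/f-labelled HFD value (9.93) was close to its highest LKO-labelled CD value (9.90). Its part in the *Insig2* level was not tested.

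*Insig1*, the INSIG that SREBPs induce, went the other way with diet. Its FPKM was 96.1 and 79.0 in the f/f-labelled and 73.3 and 82.7 in the LKO-labelled libraries on CD, and 54.2 and 52.4 in the f/f-labelled and 55.1 and 49.1 in the LKO-labelled libraries on HFD. All 4 HFD libraries lay below all 4 CD libraries, whereas the genotype labels overlapped on both diets. Averaged over the labels, *Insig1* fell on HFD to 0.637 of its CD mean, by 0.56 on the log2 scale (95% interval −0.76 to −0.37, limma adjusted p = 0.0116). Without each library in turn that adjusted p was 0.0311 to 0.0538. It was above 0.05 without LKO CD replicate 2 (0.0523), f/f HFD replicate 1 (0.0516), f/f HFD replicate 2 (0.0538) or LKO HFD replicate 2 (0.0513). Within a label the log2 differences were −0.64 in f/f-labelled libraries (limma adjusted p = 0.0565) and −0.49 in LKO-labelled libraries (0.0720). With only genes above 1 FPKM in all 8 libraries, these adjusted p were 0.0292 and 0.0458. Between the labels on CD the log2 difference was −0.15 (95% interval −0.43 to 0.12, limma adjusted p = 0.606). The summed FPKM of 5 endothelial markers was 17.2 to 22.2 on CD and 21.5 to 27.7 on HFD, and that of 6 stellate cell and fibroblast markers 12.9 to 16.4 and 17.3 to 23.3. In the latter sum *Reln* was the largest marker, at 6.38 to 9.15 on CD and 10.1 to 14.4 on HFD. The means of *Lrat* and *Des* were also higher on HFD under both labels. Those of *Col1a1* and *Col3a1* were lower on HFD under both labels. The mean of *Acta2* was higher on HFD under the f/f label and lower under the LKO label. The part of these cell types in the diet differences was not tested.

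The INSIG transcripts stood in different proportions in the 4 groups, given here as a description since *Insig2* enters every ratio. The ratio of *Insig2* to *Insig1* FPKM was 0.692 and 0.859 in the f/f-labelled libraries on CD and 1.54 and 1.21 in the LKO-labelled ones. On HFD it was 1.52 and 1.55 in the f/f-labelled and 2.84 and 3.17 in the LKO-labelled libraries. *Insig2* made up 40.9% to 46.2% of the summed INSIG FPKM in the f/f-labelled libraries on CD and 74.0% to 76.0% in the LKO-labelled libraries on HFD. The sum of both genes was lowest in the f/f-labelled libraries on HFD, at 137 and 133, and highest in the LKO-labelled libraries on HFD, at 212 and 205.

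**Figure D2:**
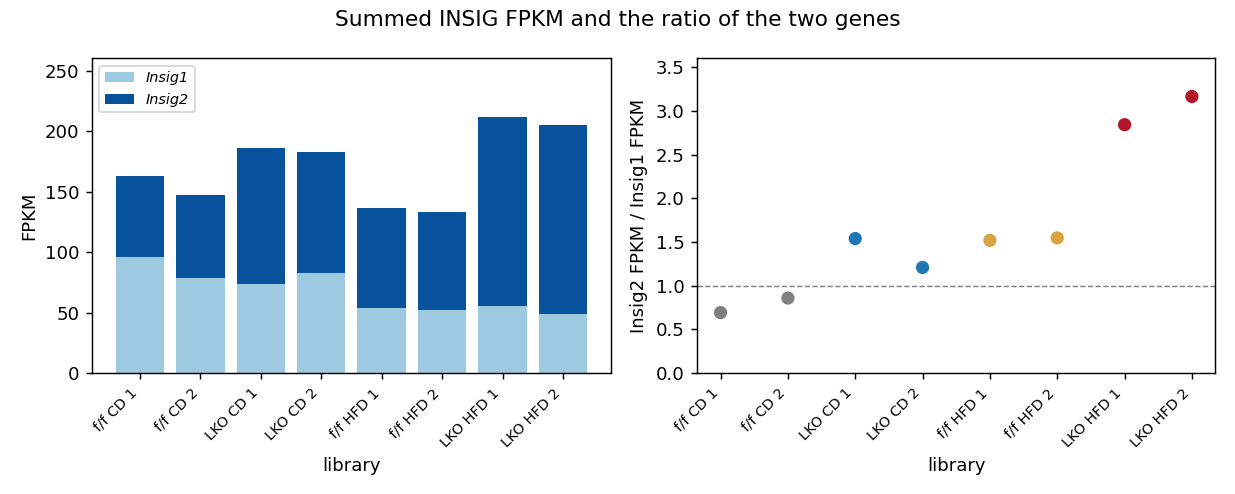
Left, stacked bars of *Insig1* and *Insig2* FPKM in each of the 8 libraries. Right, *Insig2* FPKM divided by *Insig1* FPKM in each library, with a dashed line at 1. The ratio lies below 1 in both f/f-labelled CD libraries and is 2.84 and 3.17 in the HFD-fed LKO-labelled libraries.

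*Srebf1*, which encodes SREBP-1a and SREBP-1c, was the member whose genotype differences pointed in opposite directions on the 2 diets. Its FPKM was 39.3 and 31.9 in the f/f-labelled and 59.6 and 54.7 in the LKO-labelled libraries on CD. On HFD it was 40.4 and 49.0 in the f/f-labelled and 34.3 and 30.9 in the LKO-labelled libraries. The LKO-labelled libraries were thus the higher ones on CD and the lower ones on HFD, with no overlap on either diet. On CD the log2 difference was 0.68 (95% interval 0.36 to 1.00, limma adjusted p = 0.196). In the LKO-labelled libraries *Srebf1* fell on HFD to 0.570 of its CD mean, by 0.74 on the log2 scale (95% interval −1.06 to −0.43, limma adjusted p = 0.0404). This call was lost with any 1 of the 8 libraries left out (adjusted p 0.0700 to 0.187), with no filter on low values (0.0825), without the mean-variance trend (0.0617) and in a fit of the 4 libraries alone (0.125). In the f/f-labelled libraries the HFD mean was 1.255 times the CD mean, a log2 difference of 0.35 (limma adjusted p = 0.224). The genotype difference on HFD was −0.41, and that on HFD minus that on CD was −1.09, both on the log2 scale and given as a description.

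*Scap*, the escort of the SREBPs, was higher in the LKO-labelled libraries on both diets without passing the test where it was made. Its FPKM was 25.6 and 27.4 in the f/f-labelled and 32.2 and 42.6 in the LKO-labelled libraries on CD, and 24.8 and 25.6 against 32.8 and 29.6 on HFD. The labels did not overlap on either diet. The log2 difference on CD was 0.50 (95% interval 0.19 to 0.82, limma adjusted p = 0.247), and that on HFD, as a description, 0.32. The diet difference averaged over the labels was −0.12 (95% interval −0.34 to 0.10, limma adjusted p = 0.452).

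*Srebf2* and the proteases varied least. *Srebf2* lay between 7.96 and 10.05 FPKM in all 8 libraries, with every pair of groups compared overlapping. Its averaged diet difference was 0.05 (95% interval −0.17 to 0.26) and its genotype difference on CD 0.03 (95% interval −0.27 to 0.34), both on the log2 scale. *Mbtps1*, the protease that makes the first cut, was 14.01 and 13.5 in the f/f-labelled and 14.6 and 15.9 in the LKO-labelled libraries on CD, and 13.3 and 12.2 against 12.8 and 12.9 on HFD. Its HFD libraries lay below its CD libraries, by an averaged log2 difference of −0.14 (95% interval −0.26 to −0.01, limma adjusted p = 0.153). *Mbtps2*, the protease that releases the nuclear part, lay between 2.94 and 4.12 FPKM, with an averaged diet difference of −0.05 (95% interval −0.25 to 0.15) on the log2 scale. These 3 genes did not pass the test in any comparison in which it was made, and the intervals span the log2 changes that the data allow.

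**Figure D3:**
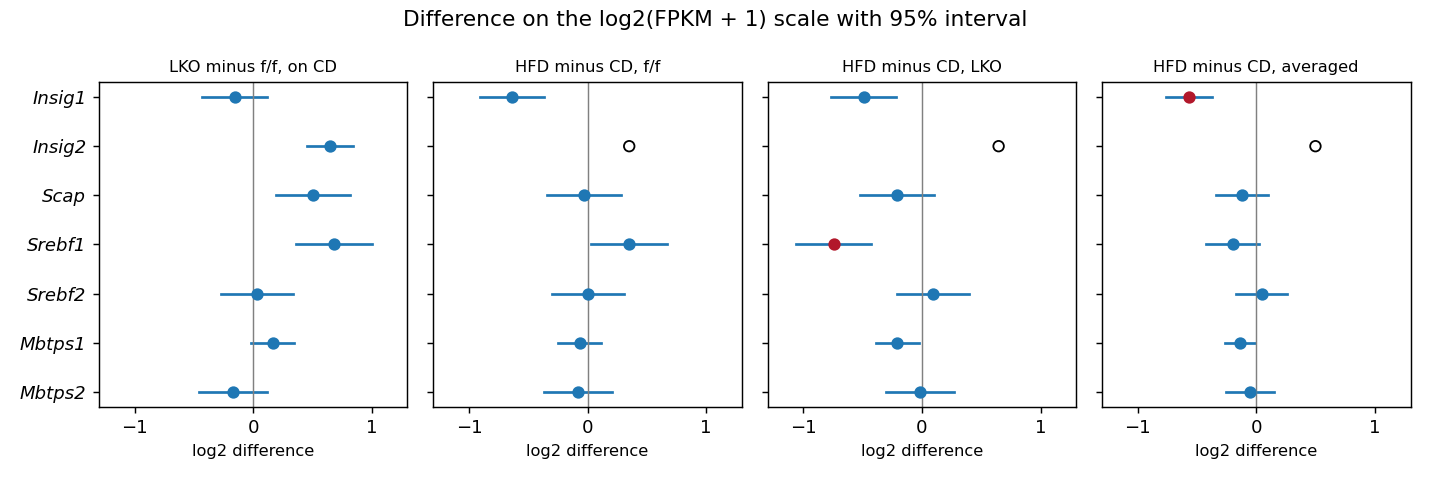
Log2 difference (x axis, log2(FPKM + 1) scale) of each gene in 4 comparisons, with points for the limma estimate and lines for its 95% interval. Red points have an adjusted p under 0.05 (*Srebf1* with HFD in LKO-labelled libraries and *Insig1* with HFD averaged over the labels), blue points do not, and open points are *Insig2* values given without a test.

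Counted together, 0 of the 7 genes had a limma adjusted p under 0.05 between the labels on CD, where 0.0172% of all tested genes did. At an unadjusted p under 0.05, *Insig2*, *Scap* and *Srebf1* were higher there, 3 of 7, against 6.15% of all tested genes. The libraries did not overlap for 5 of the 7 genes on CD, against 43.3% of all tested genes. Both of these counts include *Insig2*, by which the group was chosen. Leaving *Insig2* out, 1 of the other 6 genes was called for the diet averaged over labels (*Insig1*, where 9.89% of all tested genes were called). For the diet in LKO-labelled libraries it was *Srebf1* (3.02% of all tested genes). For the diet in f/f-labelled libraries 0 were called, where 1.33% of all tested genes were. *Insig1* and *Srebf1*, 2 of these 6, had an unadjusted p under 0.05 there, against 19.2% of all tested genes. The HFD and CD libraries did not overlap over both labels for *Insig1* and *Mbtps1*, 2 of the 6, against 16.5% of all tested genes.

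The genes that SREBP-2 drives were mostly lower on HFD. Of 23 such genes of cholesterol synthesis and uptake, 16 fell and 0 rose with HFD averaged over the labels (limma adjusted p under 0.05), where 4.86% of all tested genes fell. The median log2 difference of the 23 was −0.68, against 0.01 over all tested genes. *Sqle*, squalene epoxidase, was 11.9, 12.3, 11.7 and 11.8 FPKM in the CD libraries and 3.02, 2.89, 5.84 and 2.02 in the HFD libraries, in the order f/f 1, f/f 2, LKO 1 and LKO 2. It fell by 1.57 on the log2 scale (limma adjusted p = 0.0126). *Fdps*, farnesyl diphosphate synthase, fell by 1.86, and *Idi1*, isopentenyl diphosphate isomerase, fell by 1.65.

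A further 10 that fell were *Nsdhl*, *Cyp51*, *Dhcr7*, *Pmvk*, *Tm7sf2*, *Hsd17b7*, *Lss*, *Acat2*, *Sc5d* and *Stard4*, by 0.44 to 1.63 on the log2 scale. *Hmgcs1*, the cytosolic HMG-CoA synthase, stood apart with an averaged difference of 0.26 (limma adjusted p = 0.419). It was 45.1 and 36.3 FPKM in the f/f-labelled and 44.9 and 46.3 in the LKO-labelled libraries on CD, and 36.1 and 33.3 against 97.4 and 53.7 on HFD. Its HFD libraries thus lay below the CD libraries under the f/f label and above them under the LKO label. Within the labels, 3 of the 23 fell in f/f-labelled libraries (*Cyp51*, *Tm7sf2* and *Dhcr7*, with 0.705% of all tested genes falling) and 6 fell in LKO-labelled libraries (among them those 3, *Fdps* and *Lss*, with 1.44% of all tested genes falling). These comparisons share no library with each other but share the estimate of spread, and 0 of the 23 passed the adjusted threshold for the interaction, the test of the difference between them (0.0344% of all tested genes, and 1 of the 23 at an unadjusted p under 0.05).

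The genes that SREBP-1c drives were also mostly lower on HFD, with 1 exception among the calls that is counted here and not described. Of 15 fatty acid synthesis genes 14 were tested, since *Pnpla3* did not exceed 0.196 FPKM in any library. Averaged over the labels, 7 fell and 1 rose (limma adjusted p under 0.05), where 4.86% of all tested genes fell and 5.04% rose. The median log2 difference of the 14 was −0.68. *Elovl6*, the elongase of palmitate, was 10.9, 20.1, 13.9 and 18.5 FPKM on CD and 3.82, 4.73, 4.82 and 2.71 on HFD, in the same order, and fell by 1.71 on the log2 scale (limma adjusted p = 0.00951). *Fasn*, fatty acid synthase, fell by 1.35, *Acly*, ATP citrate lyase, fell by 1.25, and *Acaca*, acetyl-CoA carboxylase 1, fell by 0.89. *Acacb*, *Acss2* and *Mid1ip1* fell by 1.24, 0.78 and 0.63.

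*Scd1*, the stearoyl-CoA desaturase, varied widely within groups, at 696, 1437, 1676 and 1516 FPKM on CD and 234, 762, 1562 and 559 on HFD (log2 difference −0.72, limma adjusted p = 0.405). In the LKO-labelled libraries, 6 of the 14 fell with HFD (*Elovl6*, *Fasn*, *Acly*, *Mid1ip1*, *Acaca* and *Acss2*), where 1.44% of all tested genes fell. In the f/f-labelled libraries 1 of the 14, *Acly*, fell, where 0.705% of all tested genes fell. Between the labels on HFD, 0 genes of either list passed limma's adjusted threshold, where 0.043% of all tested genes did. At an unadjusted p under 0.05, 2 SREBP-2 and 4 SREBP-1c targets were higher in LKO-labelled libraries (5.46% of all tested genes) and 0 and 1 were lower (4.12%). Among the higher ones were *Hmgcs1* (log2 difference 1.10), *Elovl5* (1.00) and *Me1* (0.83), which encodes malic enzyme. On CD, *Me1* (0.81, limma adjusted p = 0.255) and *Mid1ip1* (0.44, 0.288) were the SREBP-1c targets at an unadjusted p under 0.05.

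**Figure D4:**
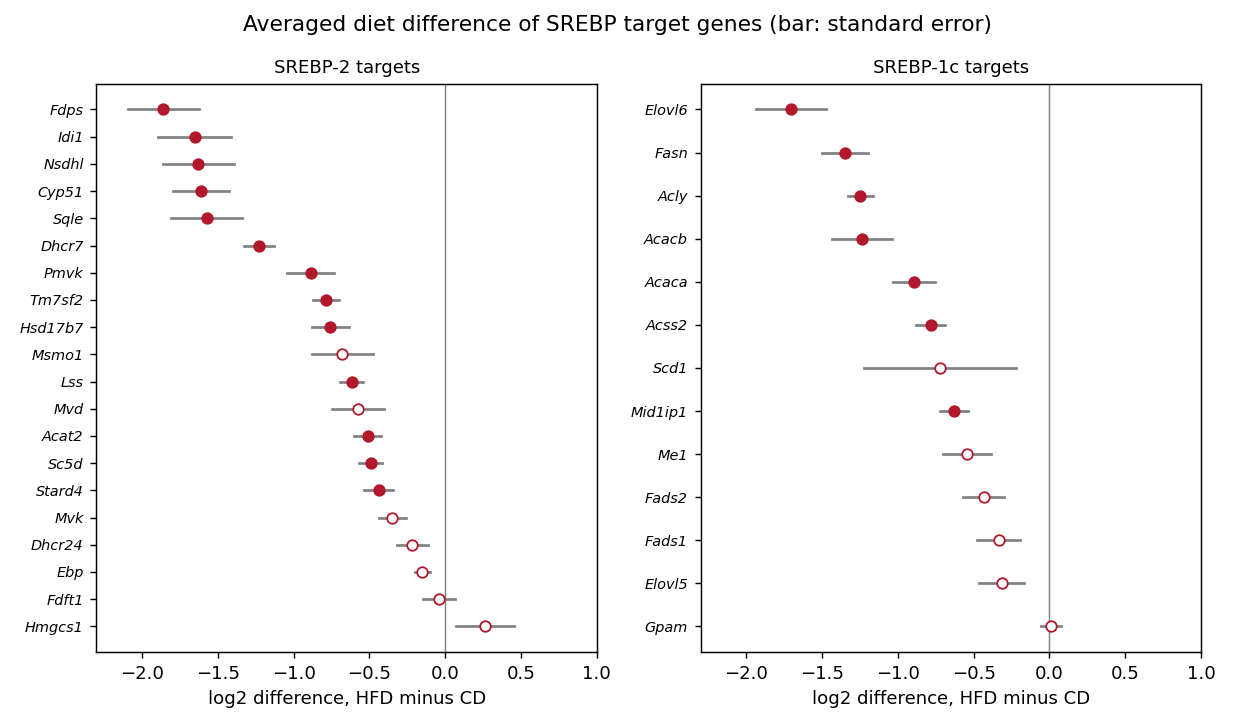
Log2 difference between HFD and CD averaged over the genotype labels (x axis) for 20 of the 23 SREBP-2 and 13 of the 14 SREBP-1c target genes, with lines for 1 standard error. Filled points have a limma adjusted p under 0.05 and lie to the left of 0, with *Fdps* and *Elovl6* farthest out, and the 1 SREBP-1c target that rose is among the genes not plotted.

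The HFD-fed LKO-labelled libraries differed from each other in these target genes. Replicate 1 was the higher one for 22 of 23 SREBP-2 targets and 14 of 14 SREBP-1c targets, with a median log2 gap of 0.39 for each list. In the other 3 groups the median gap of the SREBP-2 targets lay between −0.06 and 0.05. That of the SREBP-1c targets was −0.21 in f/f-labelled libraries on CD, where replicate 1 was the higher one for 2 of 14, and −0.11 in those on HFD. *Marco*, a macrophage marker, was 9.71 FPKM in replicate 1 and 1.09 in replicate 2, and it also differed between replicates on CD (4.25 and 0.599 in LKO-labelled libraries) and in f/f-labelled libraries on HFD (5.31 and 1.12). The summed FPKM of 6 macrophage markers was 76.3 and 54.0, against 43.0 to 69.6 in the other groups. Their part in the gap was not tested. The members moved less, with *Insig1* at 55.1 and 49.1 and *Insig2* at 157 and 156. Without replicate 1 the SREBP-2 targets that fell, averaged over the labels, numbered 17, and their median difference was −0.84. The counts moved by over 1.5 times without some other libraries. They were 7 without f/f CD replicate 1, 6 without f/f CD replicate 2, 8 without LKO CD replicate 2, 6 without f/f HFD replicate 1 and 7 without f/f HFD replicate 2. For the SREBP-1c targets they were 5 without LKO CD replicate 2, 3 without f/f HFD replicate 1, 4 without f/f HFD replicate 2 and 5 without LKO HFD replicate 2. The median of the SREBP-2 targets between the labels on HFD, 0.15, became −0.22 without replicate 1.

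**Figure D5:**
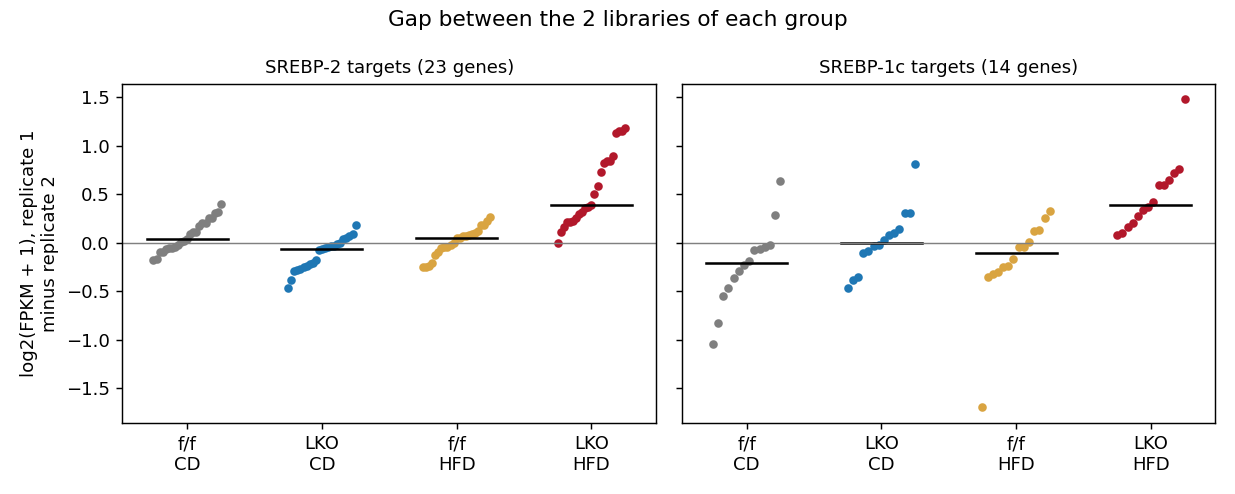
Difference on the log2(FPKM + 1) scale between replicate 1 and replicate 2 of each group (y axis) for each SREBP-2 and SREBP-1c target gene (points, sorted within a group), with a bar at the median. The HFD-fed LKO-labelled group has medians of 0.39 in both lists.

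Genes of INSIG degradation and of SCAP transport were counted next. Of 20 such genes, 0 had a limma adjusted p under 0.05 in any of the 6 comparisons. The shares of all tested genes that did were 0.0172% and 0.043% for the genotype on CD and HFD, 1.33%, 3.02% and 9.89% for the diet in f/f-labelled and LKO-labelled libraries and on average, and 0.0344% for the interaction. At an unadjusted p under 0.05, 1 was higher on CD between the labels, and with HFD 1 was lower under each label and 2 were lower on average. The shares of all tested genes were 6.15%, 9.22% and 9.69% under the f/f and LKO labels, and 13.0%. *Rnf139*, which encodes the TRC8 ubiquitin ligase, was 11.3 to 13.8 FPKM over the 8 libraries. *Paqr3*, a Golgi anchor of SCAP, was 3.31 and 4.24 in the f/f-labelled and 5.57 and 5.26 in the LKO-labelled libraries on CD, and 3.93 and 3.59 against 2.45 and 3.33 on HFD. Its log2 difference on CD was 0.43 (limma adjusted p = 0.314). *Vcp*, the segregase that extracts ubiquitinated proteins from the membrane, was lower in both f/f-labelled HFD libraries (91.8 and 91.7) than in the CD ones (104 and 108), with an averaged diet difference of −0.08 (limma adjusted p = 0.274).

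Of 16 upstream regulators, such as LXR, insulin signalling and FOXO1 genes, 2 rose with HFD averaged over the labels and 0 fell, where 5.04% of all tested genes rose and 4.86% fell. *Rxra*, the partner of LXR and PPAR receptors, rose by 0.27 (limma adjusted p = 0.0153) and *Pparg* rose by 0.25 (0.0466) on the log2 scale. The FPKM of *Pparg* overlapped between the diets under the f/f label (3.83 and 4.29 on CD, 4.22 and 4.46 on HFD). Under the LKO label it did not overlap (4.55 and 4.53 on CD, 5.86 and 6.38 on HFD). *Nr1h3*, which encodes LXRα, an activator of *Srebf1*, was 38.7 to 44.0 FPKM in all 8 libraries. *Foxo1*, which insulin keeps out of the nucleus, was 17.7 and 18.3 in the f/f-labelled and 9.39 and 8.998 in the LKO-labelled libraries on CD, and 14.9 and 12.0 against 11.5 and 12.3 on HFD. Its log2 difference on CD was −0.88 (limma adjusted p = 0.0757). *Usf1* was higher in the LKO-labelled libraries on CD (log2 difference 0.35, limma adjusted p = 0.299). *Mlxipl*, which encodes ChREBP, had a log2 difference of −0.25 on HFD (0.473). *Pparg* had one of 0.42 on HFD (0.228).

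Of the 4 receptors that bind ROR elements, *Nr1d1*, which encodes the repressor REV-ERBα, rose with HFD. It was 28.1, 26.5, 23.7 and 23.8 FPKM on CD and 65.6, 48.3, 55.5 and 64.0 on HFD, in the order f/f 1, f/f 2, LKO 1 and LKO 2. All HFD libraries lay above all CD libraries, with an averaged log2 difference of 1.201 (limma adjusted p = 0.00358). It rose under each label, by 1.05 in f/f-labelled (limma adjusted p = 0.0373) and 1.35 in LKO-labelled libraries (0.0178). *Nr1d2*, which encodes REV-ERBβ, was 28.6 and 27.5 in the f/f-labelled and 20.5 and 22.4 in the LKO-labelled libraries on HFD (log2 difference −0.36, limma adjusted p = 0.228).

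The genes whose pattern was most like a member's were named over 8 libraries from 9838 other genes above 1 FPKM in all libraries, by Pearson's r, as a description. The 8 libraries form 4 groups, so that r mostly follows 4 group means. For *Insig2* the highest r were those of *Bri3bp* (0.98), *BC004004* (0.97), *Phospho1* (0.97), *Capn2* (0.97) and *Nectin1* (0.96), and the lowest those of *Emsy*, *Fam47e* and *Per2* (all −0.98). *Per2*, a clock repressor, was 6.38 and 6.92 in the f/f-labelled and 4.78 and 5.87 in the LKO-labelled libraries on CD, and 5.90 and 5.83 against 3.51 and 3.69 on HFD. It was thus lowest where *Insig2* was highest. For *Insig1* the highest were *Ppp1r10* (0.98), *Ssh2* (0.97), *Siah2* (0.96), *Coq8b* (0.96) and *Idi1* (0.96), of which *Idi1* is an SREBP-2 target. The lowest were *Cyp2b9* (−0.98), *Taf7* (−0.97) and *Odf2l* (−0.97). For *Srebf1* they were *Hp* (0.98), *Entpd8* (0.97), *Mst1* (0.96), *Flcn* (0.94) and *Tjap1* (0.94), and at the other end *Taf3* (−0.97), *Brwd1* (−0.95) and *1810022K09Rik* (−0.94).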

How the data were processed

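Liver poly(A) RNA was sequenced in 8 libraries, 2 per group, each from the pooled livers of 2 mice. Per the labels and the study's methods, the authors trimmed the reads with cutadapt 1.0, aligned them to GRCm38 with TopHat2 2.0.7 and estimated FPKM per gene with Cufflinks, whose version, annotation and strand setting are not given in the sources used here. The deposited values are FPKM, not on a log scale, for 38283 genes.

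The 11634 genes with any library above 1 FPKM entered the tests. Log2(FPKM + 1) values were quantile normalized. A fold change on the log2(FPKM + 1) scale understates the change of low genes. The authors' permutation calls regroup the samples and were not used. In their place limma 3.58.1 (R 4.3.3) was fitted once to the 4 group means of all 8 libraries, with a mean-variance trend (4 residual and 2.8 prior degrees of freedom). P-values are two-sided and Benjamini-Hochberg adjusted over all genes tested within each comparison. The comparisons were the genotype label on each diet, the diet under each label and averaged over the labels, and the interaction. An exact permutation test of a single gene cannot give a p below 0.3333 for 2 against 2 libraries. The fit was tested on simulated data. SD are of the deposited FPKM.

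Genes were matched by Ensembl identifier in GENCODE M21, and start site windows came from RefSeq (GRCm38.p6). The members and gene lists were chosen with earlier results of these data known. Named are the 7 members, 19 listed pathway genes whatever their values, for each list and comparison the 2 with the largest change among genes with an unadjusted p under 0.05 and libraries that do not overlap, every listed gene with an adjusted p under 0.05, and the 5 most and 3 least alike genes of *Insig2*, *Insig1* and *Srebf1*. Some listed genes are counted in their lists and not reported by name here. *Marco*, the other cell type markers and *Pnpla3* are named besides, after their values were seen. Alternatives tried were no normalization, median centring, a pseudocount of 0.1, both other filters, no trend, the libraries of a comparison alone, a replicate block and each library left out.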

Additional observations from a re-analysis of the deposited data

Results flagged for a closer look

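*Srebf1* was picked out because its libraries moved in opposite directions with no overlap. Its log2 difference between the genotype labels (LKO minus f/f) was 0.68 on CD and −0.41 on HFD, and that between HFD and CD was 0.35 under the f/f label and −0.74 under the LKO label. The difference between these effects was not tested, since it contains the contrast in which the group was known. Among all 11634 tested genes, libraries did not overlap for 5041 between the labels on CD and for 4899 on HFD. With diet they did not overlap for 5801 under the f/f label and for 6189 under the LKO label. How many of all tested genes moved in opposite directions with no overlap was not counted.

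Among the pathway genes, the same kind of opposite movement between the labels' diet effects was seen for *Foxo1* (−0.37 under the f/f label and 0.36 under the LKO label), *Hmgcs1* (−0.19 and 0.72) and *Mlxipl* (0.14 and −0.25). Between the genotype differences on CD and on HFD it was seen for *Mid1ip1* (0.44 and −0.39), *Mlxipl* (0.15 and −0.25), *Paqr3* (0.43 and −0.30) and *Usf1* (0.35 and −0.05). For none of these did the interaction pass limma's adjusted threshold, with adjusted p between 0.453 for *Foxo1* and 0.594 for *Hmgcs1*. Some gaps were narrow. Under the f/f label the nearest *Hmgcs1* libraries were at 36.1 FPKM on HFD and 36.3 on CD. With 2 libraries in a group, a library that stands apart from its group cannot be tested for.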

How the results depend on the processing

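The diet differences of the SREBP-2 and SREBP-1c target lists kept their direction under every alternative run. Numbers of genes called moved more. Genes with a limma adjusted p under 0.05 numbered 2 between the labels on CD, 5 on HFD, 155 with HFD in f/f-labelled libraries, 351 in LKO-labelled libraries, 1151 averaged over the labels and 4 for the interaction. Without a filter on low values they numbered 10, 24, 46, 135, 704 and 19. With FPKM above 1 in all 8 libraries (9839 genes tested) they were 7 on CD, 323 and 570 for the diet in f/f-labelled and LKO-labelled libraries, and 0 for the interaction. With a pseudocount of 0.1 they were 1 on CD and 2 for the interaction. Without the trend they were 4 on CD, 42 and 229. When each comparison was fitted to its own 4 libraries they were 0 on CD, and 5 and 0 for the diet under the labels. At an unadjusted p under 0.05 the fit of 8 libraries gave 1428 on CD, 2230 and 2483 for the diet under the labels and 972 for the interaction. Higher and lower calls numbered 73 and 82 in f/f-labelled, 183 and 168 in LKO-labelled libraries and 586 and 565 averaged, and without quantile normalization 56 and 109, 136 and 239, and 397 and 703.

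For the diet in f/f-labelled libraries, 3 SREBP-2 targets were called, against 12 with FPKM above 1 in all 8 libraries and 1 with no filter, with no trend and with the 4 libraries alone. The SREBP-1c count of 1 was 2 without normalization, 5 with FPKM above 1 in all 8 libraries and 0 with the 4 libraries alone. For the diet in LKO-labelled libraries, 6 SREBP-2 targets became 10 with FPKM above 1 in all 8 libraries, 1 with no filter and 0 with the 4 libraries alone, and 6 SREBP-1c targets became 3 with no filter and 0 with the 4 libraries alone. The SREBP-1c median there, −0.70, was −0.84 without normalization and −0.54 with no filter. The cause was not tested.

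With each library left out, genes called ranged from 2 to 20 on CD, 4 to 24 on HFD, 12 to 34 and 19 to 80 for the diet under the f/f and LKO labels, 340 to 731 averaged and 11 to 21 for the interaction. SREBP-2 targets called ranged from 0 to 7, 0 to 6 and 6 to 17 in the diet comparisons (f/f, LKO and averaged), and SREBP-1c targets from 0 to 1, 0 to 2 and 3 to 8. SREBP-2 medians ranged from −0.22 to 0.32 on HFD between labels, −0.82 to −0.39 for the diet in LKO-labelled libraries and −0.20 to 0.39 for the interaction. SREBP-1c medians ranged from −0.10 to 0.34, −1.07 to −0.42 and −0.36 to 0.12 in the same comparisons, and from −0.92 to −0.52 and −0.80 to −0.48 for the diet in f/f-labelled libraries and on average.

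Replicate numbers are shared across groups, but the libraries come from different animals. Pearson's r of same-numbered deviations ranged from −0.0037 to 0.149 over the 6 pairs of groups, and the numbers were not treated as pairs. Whether same-numbered libraries shared a batch cannot be told from these values. With a replicate block, 34 genes were called for the diet in f/f-labelled and 223 in LKO-labelled libraries, with 1 SREBP-2 and 2 SREBP-1c targets called under the f/f label. *Srebf1* in LKO-labelled libraries had an adjusted p of 0.0636 with the block. Over the 7 members, 626 values under alternatives stayed on their side of the threshold or within the spread, 16 fell short of the threshold, 4 passed it and 12 described values moved by more than the spread.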
